A study of Homo sapiens with 6 samples.

Results

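The 37 genes carried by the human mitochondrial genome were followed in 6 RNA sequencing libraries of CCD18Co, an established line of human colon fibroblasts. They are all the rows that the deposited count table places on chromosome MT, 37 of its 60663 genes: 13 protein-coding genes, 2 ribosomal RNA (rRNA) genes and 22 transfer RNA (tRNA) genes. The cells were transfected with a pool of siRNAs against *LTBP2*, which encodes a latent TGF-beta binding protein of the extracellular matrix (siLTBP2), or with a non-targeting pool (siNT), and harvested 48 h later. Each group has 3 libraries, which the labels number 1 to 3, all from the same line and the same transfection reagent. Nothing in the labels says whether the 3 came from separate cultures, so that p-values measure only the spread between these libraries. The question put to the data was whether the level of the mitochondrial transcripts, their share of the counts or their spread between replicates differed when *LTBP2* was silenced.

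Mitochondria keep a small circular genome in many copies per cell. Its protein-coding genes all encode subunits of the respiratory chain and of ATP synthase, which work together with subunits encoded in the nucleus, and its rRNAs and tRNAs serve the ribosomes of the organelle. Both strands are transcribed into long precursors. The tRNAs that lie between the longer genes are cut out of the precursor at both ends, which releases the mRNAs and rRNAs, and poly(A) tails are then added to most mRNAs. In bulk RNA, fewer mitochondria, fewer genomes in each and less RNA from each genome cannot be told apart.

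Between 44663424 and 53576899 counts per library fell on genes. *LTBP2* itself was at 25.0, 23.1 and 21.2 CPM (normalised counts relative to the library size, with TMM factors) in siNT 1 to 3 and at 6.49, 8.61 and 6.00 CPM in siLTBP2 1 to 3, so that 30.4% was left. Its log2 fold change was -1.72 (SE 0.15, adjusted p = 6.6e-05, edgeR's quasi-likelihood test). The 7 fibroblast markers summed to between 9529 and 13666 CPM, and the immune and endothelial markers to at most 0.444 and 2.01 CPM. The 5 epithelial markers summed to between 40.1 and 52.4 CPM in siNT and between 85.4 and 99.1 CPM in siLTBP2, almost all of it from 2 keratins of simple epithelia, while *EPCAM* and *KRT20* stayed at or near 0. Whether this difference touches the mitochondrial genes was not tested.

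The layout of this genome decides which reads can be assigned to a single gene. Its 16569 bases (chrM of GRCh38) leave almost no room between genes, and 28 of the 37 genes are read in one direction (listed on the plus strand, the RNA copied from the heavy strand). The other 9, which are *MT-ND6* and 8 tRNAs, are listed on the minus strand. *MT-ATP8* and *MT-ATP6* lie on a single mRNA and share 46 bases, as do *MT-ND4L* and *MT-ND4* with 7 shared bases. The stretches around these overlaps are printed 5′ to 3′ on the plus strand, with the shared bases in capitals, because a read pair that covers a shared base belongs to both genes:
MT-ATP8/MT-ATP6, chrM:8515-8584: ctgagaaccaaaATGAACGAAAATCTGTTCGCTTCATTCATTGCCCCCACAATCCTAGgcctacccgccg
MT-ND4L/MT-ND4, chrM:10748-10778: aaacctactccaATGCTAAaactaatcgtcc

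Several of these mRNAs end without a full stop codon, directly before a tRNA or another gene. *MT-ND1* ends with the letters TA and *MT-ND4*, *MT-CO3* and *MT-CYB* with a single T, and the poly(A) tail completes the codon. *MT-TI* follows *MT-ND1* and *MT-TT* follows *MT-CYB*. The junctions are shown on the plus strand, with the encoded first bases of the stop codon in capitals. The first bases of the following gene come after them:
MT-ND1 end, chrM:4251-4274: ccctcaaaccTAagaaatatgtct
MT-ND4 end, chrM:12126-12149: ggttttcctctTgtaaatatagtt
MT-CO3 end, chrM:9979-10002: gatgagggtctTactcttttagta
MT-CYB end, chrM:15876-15899: tcaaatgggccTgtccttgtagta

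Per kilobase of gene, *MT-CO1* led in every library. This gene encodes the catalytic subunit of cytochrome c oxidase (complex IV) and was the gene with the second highest mean CPM in the whole table. It reached 6390 ± 1065 CPM per kb (SD, n = 3) in siNT. *MT-CO3* and *MT-CO2*, the other mitochondrial subunits of that complex, followed at 4047 ± 440.4 and 3976 ± 774 CPM per kb. These 2 did not differ beyond their spread, *MT-CO3* being the higher in 4 of the 6 libraries.

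The subunits of complex I, the entry point of electrons from NADH, spanned a wide range. *MT-ND4* stood at 2108 ± 392 CPM per kb and its partner on the same mRNA, *MT-ND4L*, at 1275 ± 189, a ratio of 1.50 to 1.97 over the 6 libraries. *MT-ND3* was at 858 ± 125, *MT-ND1* at 568 ± 86.0, *MT-ND5* at 551 ± 91.0 and *MT-ND2* at 439 ± 66.3 CPM per kb. *MT-ND6*, the only mRNA read from the opposite strand, was at 203 ± 39.0, so that *MT-CO1* exceeded it between 25.4 and 39.8 times.

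*MT-CYB*, the mitochondrial subunit of complex III, stood at 1078 ± 139 CPM per kb. *MT-ATP6*, which forms part of the proton channel of ATP synthase, was at 1201 ± 169. Its partner *MT-ATP8* was at 189 ± 14.9, between 5.79 and 6.82 times lower per kb in every library although both lie on a single mRNA. The shared 46 bases are a large part of the 207 bases of *MT-ATP8*, and read pairs over them are counted for neither gene under the counter's default setting. How much of the gap this accounts for was not tested.

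The neighbouring pairs *MT-ND4L* and *MT-ATP6*, *MT-ATP6* and *MT-CYB*, *MT-ND1* and *MT-ND5*, and *MT-ND6* and *MT-ATP8* also overlapped in siNT, and the higher member led in 4, 4, 5 and 3 of the 6 libraries. Both rRNAs lay below all 13 mRNAs in mean level per kb in siNT, at 99.8 ± 58.8 CPM per kb for *MT-RNR2* and 70.5 ± 44.5 for *MT-RNR1*. The RNA had been depleted of rRNA with probes before sequencing, so these are levels of what was left.

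**Figure D1:**
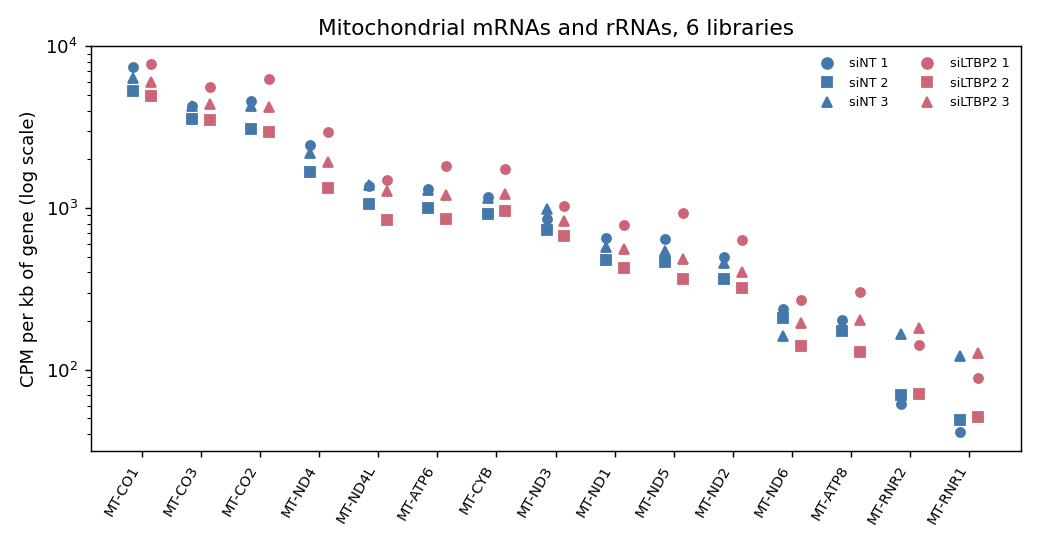
TMM-normalised CPM per kb of gene (log scale) of the 13 mitochondrial mRNAs and 2 rRNAs, in order of the siNT mean, with 1 point per library (blue siNT, red siLTBP2, shape for the library number). The levels run from 7749 CPM per kb for *MT-CO1* in siLTBP2 1 to 41.0 for *MT-RNR1* in siNT 1, and siLTBP2 1 is the highest point of each mRNA.

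The summed mitochondrial share of the counts did not separate the groups. It was 2.65%, 2.06% and 2.48% of all gene counts in siNT 1 to 3 and 3.16%, 1.80% and 2.33% in siLTBP2 1 to 3. The highest and the lowest of the 6 values both belonged to siLTBP2. The means were 2.40% ± 0.302 (SD, n = 3) and 2.43% ± 0.688, a log2 ratio of 0.02 (exact permutation test, two-sided, p = 1, where 3 libraries against 3 cannot go below 0.1). Counting error is far smaller than these differences between libraries. The exact (Clopper-Pearson) 95% binomial interval of siLTBP2 1, for example, runs from 3.155% to 3.165%.

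The mRNAs made up between 98.2% and 99.4% of the mitochondrial counts and followed the sum, at 2.37% ± 0.301 and 2.40% ± 0.681 of all counts. Grouped by complex, the 3 complex IV genes took 1.59% ± 0.203 of all counts in siNT and 1.60% ± 0.394 in siLTBP2. For the 7 complex I genes the shares were 0.574% ± 0.0775 and 0.562% ± 0.210. *MT-CYB* took 0.124% ± 0.0127 and 0.147% ± 0.0435, and the pair of ATP synthase genes 0.0866% ± 0.00951 and 0.0912% ± 0.0338. The groups overlapped for each complex, and no share gave an exact two-sided permutation p below 0.5 (adjusted p = 1 over the 10 shares tested).

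**Figure D2:**
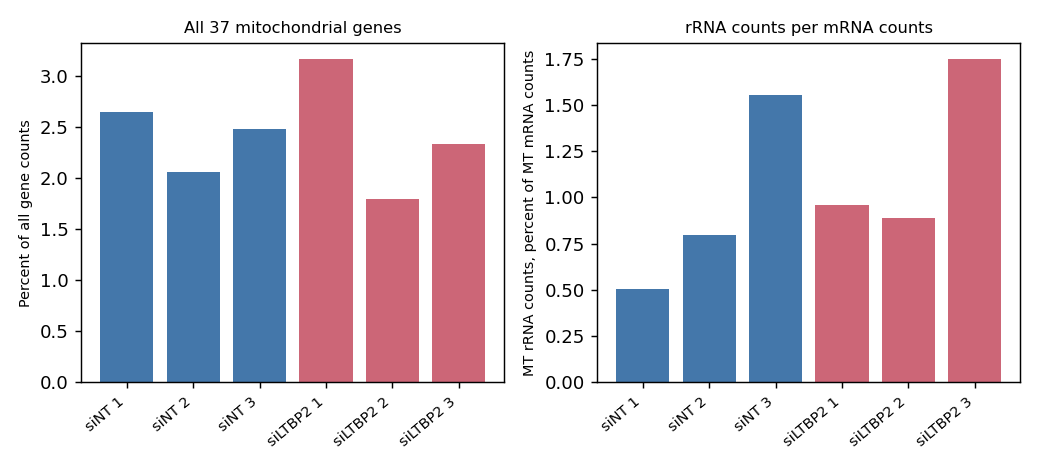
Percent of all gene counts on the 37 mitochondrial genes (left) and mitochondrial rRNA counts as a percent of mitochondrial mRNA counts (right), 1 bar per library, blue for siNT and red for siLTBP2. On the left siLTBP2 holds both the highest bar (3.16%) and the lowest (1.80%), and on the right library 3 is the highest of each group (1.55% and 1.75%).

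Gene by gene, 21 of the 37 had enough counts to be tested: all mRNAs, both rRNAs and 6 tRNAs. None of the 21 had an adjusted p below 0.05 in edgeR's quasi-likelihood test fitted on 16920 genes, where 19.3% of all genes tested did (9.76% higher and 9.51% lower in siLTBP2). Accordingly 0 of them met the stricter limits (an adjusted p under 0.01 with more than a 2-fold change), which 2.57% of all genes met. At an unadjusted p below 0.05 there was 1, *MT-TT*, and by DESeq2 there was none at either level. These fits treat the libraries as unpaired. With the library number as a block, 3 of the 21 passed (14.3%), where 36.2% of all genes did. The groups failed to overlap in 1 of the 21 genes, against 37% of all genes tested (18.7% higher and 18.3% lower). Among the mRNAs, 8 fold changes were above 0 and 5 below, with a median of 0.06 on the log2 scale beside -0.01 over all genes.

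*MT-CO1* measured 11475, 8191 and 9896 CPM in siNT 1 to 3 and 11949, 7655 and 9275 CPM in siLTBP2 1 to 3. The groups overlap fully and the log2 fold change was -0.03 (SE 0.18, 95% interval -0.43 to 0.37, adjusted p = 0.924, edgeR). *MT-CO2*, which takes up the electrons from cytochrome c, was at 3128, 2122 and 2909 CPM against 4320, 2034 and 2906 CPM. Only siLTBP2 1 lay above the siNT range, and the log2 fold change of 0.18 (SE 0.24) was -0.14 without it.

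*MT-CO3* gave 3375, 2774 and 3369 CPM in siNT and 4399, 2758 and 3432 CPM in siLTBP2 (log2 fold change 0.15, SE 0.17). Within complex I, *MT-ND4* gave 3385, 2319 and 3009 CPM and 4066, 1837 and 2644 CPM, and *MT-ND5* gave 1167, 838 and 988 CPM and 1678, 662 and 879 CPM. Both show siLTBP2 1 above and siLTBP2 2 below every siNT library. Their log2 fold changes were -0.03 (SE 0.25) and 0.11 (SE 0.28).

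The remaining complex I subunits lay close to 0, at 0.06 for *MT-ND1*, 0.04 for *MT-ND2*, -0.03 for *MT-ND3* and -0.08 for *MT-ND4L*, the lowest of all mRNAs. *MT-ATP6* had a log2 fold change of 0.11 (SE 0.22). *MT-ATP8* gave 42.2, 36.0 and 39.1 CPM in siNT and 62.8, 26.6 and 42.3 CPM in siLTBP2, a log2 fold change of 0.17 (SE 0.23). Over the 13 mRNAs the 95% intervals reached from -0.57 to 0.72 in this fit, with half-widths of 0.34 to 0.61.

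**Figure D3:**
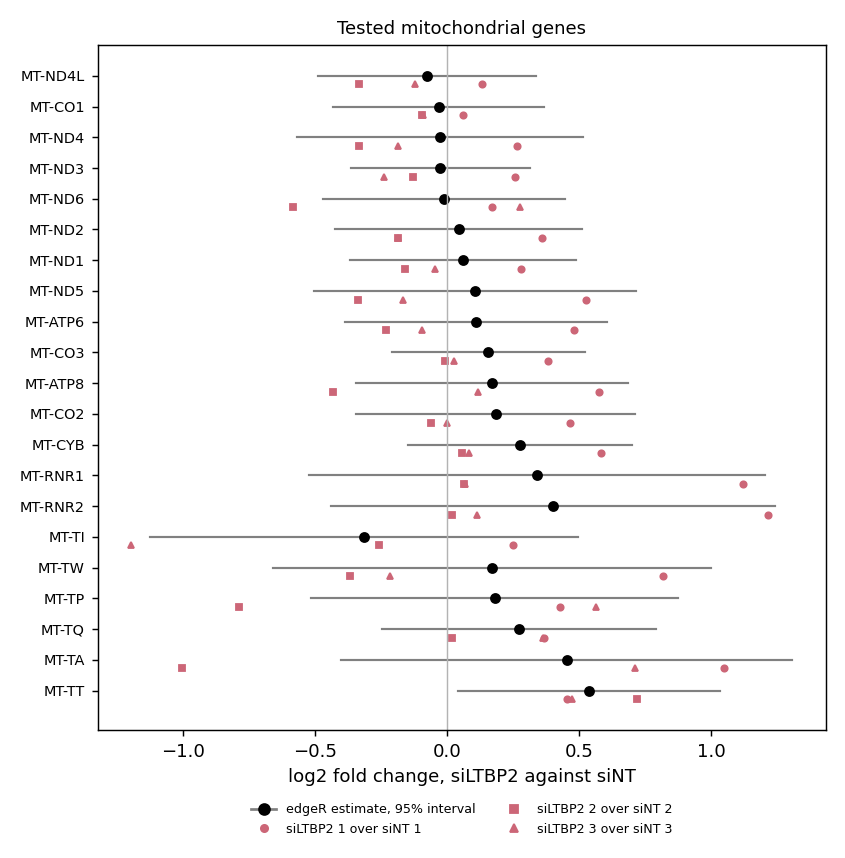
Log2 fold change of siLTBP2 against siNT for the 21 tested mitochondrial genes, with the edgeR estimate (black) and its 95% interval (grey), and below each the log2 ratio of the siLTBP2 library to the siNT library of the same number (red). Each interval except that of *MT-TT* crosses 0, and the red circle of library 1 is far to the right of the other 2 for both rRNAs (1.12 and 1.21).

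The mRNAs moved as a block from library to library. siLTBP2 1 was the highest of the 6 libraries in 13 of 13 mRNAs, and siLTBP2 2 was the lowest in 12, the exception being *MT-CYB*, where siNT 2 was lower still. Set against the siNT library of the same number, siLTBP2 1 was higher in 13 of 13 mRNAs (median log2 ratio 0.36), siLTBP2 2 lower in 12 (median -0.19) and siLTBP2 3 lower in 9 (median -0.09). The mitochondrial share of counts changed by 19.3%, -13.0% and -5.98% in these 3 pairs. The siLTBP2 libraries therefore did not share a direction.

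The typical spread of the mRNAs within a group was wider than that of most nuclear genes at 100 CPM or more. The coefficient of variation (SD over mean, n = 3) of the 13 mRNAs had a median of 15.1% in siNT and 32.1% in siLTBP2. Over 2393 nuclear genes with a mean of at least 100 CPM the medians were 8.12% and 6.67%. The nuclear genes were not matched to the mRNAs in level, and *MT-ATP8* lay below 100 CPM (means of 39.1 in siNT and 43.9 in siLTBP2). In siLTBP2, 0.710% of those nuclear genes exceeded the mitochondrial median, and in siNT 10.6% did. The lowest coefficient of an mRNA in siLTBP2, 21.0% for *MT-ND3*, was above the highest in siNT, 19.5% for *MT-CO2*. As the mRNAs of one library move together, these 13 values rest on 3 libraries a group and not on 13 separate measurements, and the difference in spread was not tested.

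Leaving out 1 library showed how far the sign rests on single samples. Without siLTBP2 1, 12 of the 13 mRNAs had a log2 fold change below 0 (median -0.22). Without siLTBP2 2, 13 of 13 were above 0 (median 0.24). In neither case did an mRNA reach an adjusted p below 0.05.

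To set the common movement aside, each mRNA was taken as a share of the mitochondrial mRNA counts of its own library. *MT-CO1* took 42.9%, 41.9% and 40.8% in siNT and 37.3%, 42.7% and 40.1% in siLTBP2. *MT-ND1* took 2.31% ± 0.0358 and 2.31% ± 0.0354. *MT-CYB* was the only mRNA of the 13 whose shares did not overlap between the groups.

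*MT-CYB* took 4.96%, 5.36% and 5.42% of the mRNA counts in siNT 1 to 3 and 6.19%, 6.06% and 6.03% in siLTBP2 1 to 3. All siLTBP2 libraries lay above all siNT libraries, with means of 5.25% ± 0.250 and 6.09% ± 0.0864 (p = 0.1 in a two-sided exact permutation test, the least that 3 against 3 allows, and adjusted p = 0.867 over the 13 mRNAs). The log2 difference was 0.22 and stayed between 0.18 and 0.24 with each library left out in turn. This share was picked after the values were seen. As its groups do not overlap, leaving out a library could not turn its sign. The ratio that follows reuses the same *MT-CYB* counts and is not separate evidence. Set against *MT-CO1* alone, *MT-CYB* came to 11.6%, 12.8% and 13.3% of its counts in siNT and 16.6%, 14.2% and 15.0% in siLTBP2 (p = 0.1 in the same exact permutation test, adjusted p = 0.6 over 6 ratios).

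As a level rather than a share, *MT-CYB* was at 1328, 1047 and 1316 CPM in siNT and 1984, 1087 and 1393 CPM in siLTBP2. The log2 fold change of 0.27 (SE 0.19, 95% interval -0.15 to 0.70, adjusted p = 0.364, edgeR) was the highest of the 13. With the library number as a block it was 0.24 (SE 0.09, adjusted p = 0.035), one of 3 mitochondrial genes of the 21 to pass in that fit (14.3%), all of them higher, where 36.2% of all genes tested passed (18.4% higher). In the blocked fit without the libraries numbered 1 it was 0.07 (adjusted p = 0.717), so the call rests on that pair.

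**Figure D4:**
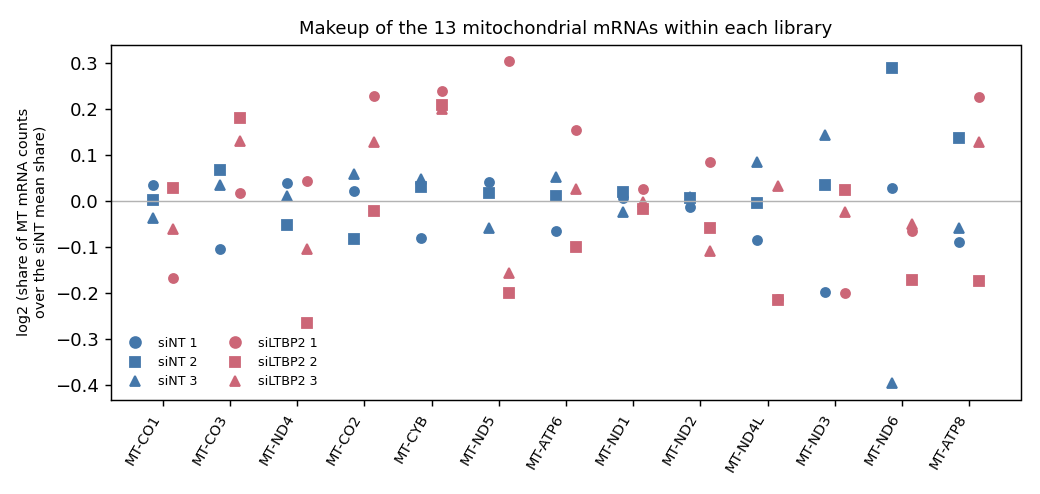
Share of each mRNA among the mitochondrial mRNA counts of its library, as log2 of the share over the siNT mean share, with 1 point per library (blue siNT, red siLTBP2). *MT-CYB* is the only mRNA with all red points above all blue points (means 5.25% and 6.09%), and *MT-ND6* varies most among the blue points.

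*MT-ND6* allows the strands to be compared. It is the single mRNA of the minus strand, encodes a subunit of complex I, and has another base makeup than the rest: its RNA holds 35.6% G and 7.0% C, whereas *MT-CO1* holds 16.2% G and 30.0% C. The first 30 bases of both coding sequences are shown 5′ to 3′ as the RNA reads (T for U), with the start codon in capitals, *MT-ND6* on the minus strand and *MT-CO1* on the plus strand:
MT-ND6 start, chrM:14644-14673: ATGatgtatgctttgtttctgttgagtgtg
MT-CO1 start, chrM:5904-5933: ATGttcgccgaccgttgactattctctaca

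The level of *MT-ND6* was 125, 110 and 84.7 CPM in siNT 1 to 3 and 141, 73.2 and 103 CPM in siLTBP2 1 to 3. The groups overlap, with a log2 fold change of -0.01 (SE 0.21, 95% interval -0.47 to 0.44, adjusted p = 0.972, edgeR). As a percent of the summed counts of the other 12 mRNAs it was 0.470, 0.565 and 0.350 in siNT and 0.441, 0.409 and 0.446 in siLTBP2. The 3 siLTBP2 values fall inside the siNT range (log2 difference -0.07, exact permutation test, two-sided, p = 0.7). Against its neighbours *MT-ND5* and *MT-CYB* the log2 difference was -0.19 (p = 0.5, the same exact test).

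The rRNAs of the small and the large mitochondrial ribosomal subunit followed another order of libraries than the mRNAs. *MT-RNR1* (12S) was at 39.1, 46.6 and 116 CPM in siNT and 85.1, 48.7 and 121 CPM in siLTBP2. *MT-RNR2* (16S) was at 96.1, 109 and 261 CPM in siNT and 223, 111 and 282 CPM in siLTBP2. Library 3 was the highest in both groups, whereas siLTBP2 1 was the highest for each mRNA.

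Neither rRNA passed the test, with log2 fold changes of 0.34 (SE 0.39, adjusted p = 0.603, edgeR) and 0.40 (SE 0.38, adjusted p = 0.516). With the library number as a block they were 0.41 (SE 0.12, adjusted p = 0.0062) and 0.44 (SE 0.12, adjusted p = 0.0054). Same-numbered libraries gave log2 ratios of 1.12, 0.06 and 0.06 for *MT-RNR1* and 1.21, 0.02 and 0.11 for *MT-RNR2*. Without the pair numbered 1 the blocked values were 0.06 (adjusted p = 0.718) and 0.07 (adjusted p = 0.713).

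Relative to the mitochondrial mRNAs, the rRNA counts were 0.505%, 0.799% and 1.55% in siNT and 0.960%, 0.888% and 1.75% in siLTBP2 (exact permutation test, two-sided, p = 0.4). The highest siNT value was 3.08 times the lowest, so that the ratio varied widely within siNT alone. By contrast the rRNAs kept a near constant proportion to each other, with 2.46, 2.35 and 2.25 counts of *MT-RNR2* per count of *MT-RNR1* in siNT and 2.62, 2.27 and 2.32 in siLTBP2. How well the rRNA depletion worked in each library was not measured and its part in these values was not tested.

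The 22 tRNA genes held between 0.000874% and 0.00196% of all counts, 417 to 877 counts per library. Mature tRNAs carry the amino acids to the ribosome. The counts were spread very unevenly. *MT-TQ* (glutamine) had 979 counts over the 6 libraries, *MT-TI* (isoleucine) 915, *MT-TP* (proline) 706 and *MT-TW* (tryptophan) 614, while 10 of the 22 had 0 in every library, which at this depth allows up to 0.0560 to 0.0672 CPM (3 counts) in a library.

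Sorted by the room around them on their own strand, a division made after the values were seen, the tRNA genes fell into 3 classes. The 7 with at least 50 bases free of other genes on their 3′ side (*MT-TI*, *MT-TQ*, *MT-TW*, *MT-TA*, *MT-TS1*, *MT-TT* and *MT-TP*) held 97.2% of the tRNA counts, with totals of 31 to 979 and a median of 614. The 5 with such room on the 5′ side only (*MT-TF*, *MT-TM*, *MT-TY*, *MT-TD* and *MT-TE*) held 2.80%, 110 counts in all. The 10 closed in on both sides held 1 count, in *MT-TC*. Under the default setting of the counter, a read pair that runs from a tRNA into an adjoining gene on the same strand is assigned to neither, and whether it was used is not stated in the sources at hand.

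The 4 genes of the first class with the most counts, *MT-TT* for its place after *MT-CYB*, and 2 closed-in genes without a count are printed 5′ to 3′ as the RNA reads (T for U, without the CCA end that is added later), to show what a read had to match. *MT-TI* and *MT-TQ* overlap by 3 bases on opposite strands (chrM 4329 to 4331). *MT-TQ* and *MT-TP* are on the minus strand and the others on the plus strand:
MT-TQ, chrM:4329-4400: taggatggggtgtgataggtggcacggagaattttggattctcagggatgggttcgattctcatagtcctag
MT-TI, chrM:4263-4331: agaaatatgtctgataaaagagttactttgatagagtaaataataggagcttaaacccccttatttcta
MT-TP, chrM:15956-16023: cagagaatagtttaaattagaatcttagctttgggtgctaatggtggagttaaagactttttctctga
MT-TW, chrM:5512-5579: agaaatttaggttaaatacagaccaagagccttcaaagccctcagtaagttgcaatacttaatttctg
MT-TT, chrM:15888-15953: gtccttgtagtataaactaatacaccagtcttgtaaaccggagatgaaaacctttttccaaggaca
MT-TL1, chrM:3230-3304: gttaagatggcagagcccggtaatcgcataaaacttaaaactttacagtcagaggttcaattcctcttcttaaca
MT-TK, chrM:8295-8364: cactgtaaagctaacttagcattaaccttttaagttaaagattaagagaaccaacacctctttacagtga

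*MT-TL1* (leucine) and *MT-TK* (lysine) had 0 counts in all 6 libraries. *MT-TL1* directly follows *MT-RNR2* and has 2 bases before *MT-ND1*, and *MT-TK* has 25 bases before it and 1 after. *MT-TT* (threonine), in contrast, directly follows *MT-CYB* but opens on its 3′ side to the noncoding control region, with 1192 bases to the next gene of its strand.

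**Figure D5:**
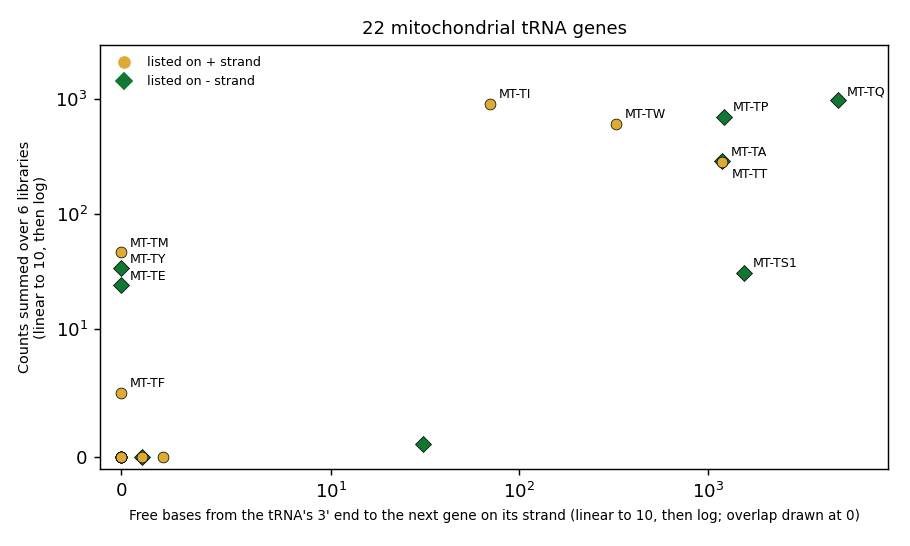
Counts of each of the 22 tRNA genes summed over 6 libraries against the number of free bases from its 3′ end to the next gene on its strand, both axes linear to 10 and logarithmic beyond. Genes with 285 counts or more all have at least 70 free bases, and those at 0 sit in the lower left corner.

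Between the groups, *MT-TT* was the only tested mitochondrial gene without overlap, at 38, 33 and 48 counts in siNT and 49, 52 and 65 counts in siLTBP2. Its log2 fold change was 0.54 (SE 0.22, 95% interval 0.04 to 1.03), with an unadjusted p of 0.0364 and an adjusted p of 0.126 in edgeR's test, so that it did not pass over all genes. Same-numbered libraries gave log2 ratios of 0.45, 0.72 and 0.47. *MT-TT* is the gene that *MT-CYB* ends against, and both had their siLTBP2 libraries on the higher side, *MT-CYB* as a share only. Both were noticed after the values were seen, and a link between them was not tested.

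*MT-TI* went the other way, with 185, 110 and 228 counts in siNT and 207, 88 and 97 in siLTBP2 (log2 fold change -0.32, SE 0.37). *MT-TQ*, on the strand opposite to it, had 176, 134 and 144 counts and 214, 130 and 181 counts (0.27, SE 0.24). *MT-TW*, *MT-TA* and *MT-TP* had log2 fold changes of 0.17, 0.45 and 0.18 with standard errors of 0.31 to 0.39, and their groups overlapped. The untested *MT-TS1* had 4, 5 and 1 counts in siNT and 7, 6 and 8 in siLTBP2. Summed over strands, the 14 tRNA genes of the plus strand and the 8 of the minus strand gave log2 ratios of -0.06 and 0.24 (exact permutation tests, two-sided, p = 0.9 and p = 0.6).

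Copies of mitochondrial DNA in the nuclear genome can take reads from these genes or lend reads to them. The longest near-identical copy lies at chr1:629081-634924 of GRCh38, where 5846 aligned bases match the genes from *MT-ND1* to *MT-CO3* with 98.5% identity. Of all 100-base windows of *MT-CO1*, 27.9% occur without a mismatch in the nuclear genome, as do 26.1% of those of *MT-ND2*, 21.2% of *MT-RNR1*, 11.9% of *MT-ATP6*, 10.97% of *MT-ND1*, 4.67% of *MT-CO3* and 2.39% of *MT-CO2*. *MT-CYB*, *MT-ND3*, *MT-ND4*, *MT-ND4L*, *MT-ND5*, *MT-ND6*, *MT-ATP8* and *MT-RNR2* have none. Of 200-base windows, 4.02% of *MT-CO1*, 7.95% of *MT-ND2* and 2.65% of *MT-RNR1* occur there, and none of the other mRNAs or of *MT-RNR2*. Reads in shared windows map to more than 1 place, and how much this lowers the levels of these genes was not measured.

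The table lists 415 such copies as genes of their own, of which 329 had 0 counts in every library. Of the 26 tested, 0 passed an adjusted p below 0.05, where 19.3% of all genes tested did. Most copies were low, with 11 of the 415 at a mean of 1 CPM or more. The 5 of highest level were *MTATP6P1* (mean 120 CPM over 6 libraries, log2 fold change 0.16), *MTND2P28* (88.1 CPM, -0.13), *MTCO1P12* (25.9 CPM, -0.05), *MTND1P23* (15.9 CPM, -0.11) and *MTND4P12* (12.6 CPM, -0.15). Together the copies amounted to between 1.17% and 1.29% of the mitochondrial counts in each library, with no separation of the groups.

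The respiratory complexes are built from both genomes, and their nuclear subunits were counted in the same fit. Of 74 tested nuclear subunits of complexes I, III and IV and of ATP synthase, the complexes that also hold mitochondrially encoded subunits, 11 fell and 0 rose at an adjusted p below 0.05. That is 14.9%, beside 9.51% of all genes tested that fell. Of the 74, 61 (82.4%) had a log2 fold change below 0, as had 50.7% of all genes tested, and their median was -0.17. Under every other test, scaling and filter tried, between 61 and 66 of the 72 to 76 tested were below 0 and none rose. The number that fell was 5 without siLTBP2 2, 7 without siLTBP2 1 and 7 without siNT 3, and it was 29 (39.2%) with the library number as a block, where 17.9% of all genes tested fell.

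The 13 mitochondrial partners had a median of 0.06, with none called. The difference between both sets was not tested. Complex II, the one complex without a mitochondrially encoded subunit, had 4 nuclear genes tested, 0 of them called (median -0.08). All 4 had a log2 fold change below 0 (adjusted p of 0.123 to 0.987, edgeR), as had 50.7% of all genes tested.

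In complex I, 5 of 37 fell (13.5%, beside 9.51% of all genes tested). They were *NDUFB1* (log2 fold change -0.56), *NDUFS7* (-0.43), *NDUFA5* (-0.40), *NDUFA10* (-0.34) and *NDUFV1* (-0.30), the last a subunit of the site that binds NADH. In complex III, 2 of 9 fell (22.2%), *CYC1* (cytochrome c1, -0.48) and *UQCRC2* (a core subunit, -0.28). *CYC1* was at 103, 88.3 and 109.8 CPM in siNT and 72.7, 70.4 and 72.0 CPM in siLTBP2. In complex IV, 1 of 11 fell (9.09%, near the 9.51% of all genes tested). It was *COX7B* (-0.49), at 53.2, 67.4 and 62.6 CPM against 41.5, 45.0 and 43.6 CPM. In ATP synthase, 3 of 17 fell (17.6%). Of these, *ATP5MC1* (-0.45) and *ATP5MC3* (-0.37) encode the subunit of the rotating c ring beside which MT-ATP6 sits, and *ATP5MG* (-0.42) was the other. *ATP5MC2*, a further gene of the c ring subunit with a mean of 182 CPM in siNT, did not pass (-0.18, adjusted p = 0.139, edgeR). On leaving out 1 library at a time, *UQCRC2* lost its call in 6 of 6 fits, *NDUFV1* in 5, *ATP5MG* and *NDUFA5* in 4, *NDUFA10* in 2 and *NDUFB1* in 1.

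The regulators of mitochondrial biogenesis held the largest nuclear change of these lists. *PPARGC1B*, a transcriptional coactivator of nuclear genes for mitochondrial proteins, was at 12.7, 9.76 and 12.6 CPM in siNT and 5.99, 4.78 and 6.21 CPM in siLTBP2. The groups did not overlap, with a log2 fold change of -1.04 (SE 0.15, adjusted p = 0.0012, edgeR), which also met the stricter limits, and it stayed between -1.16 and -0.94 with each library left out. *ESRRA*, a nuclear receptor that this coactivator binds, fell by 0.43 on the log2 scale (SE 0.12, adjusted p = 0.025). The related *PPARGC1A* was barely detected, at 0.477 ± 0.163 CPM and 0.293 ± 0.0712 CPM, and did not pass (-0.70, adjusted p = 0.214). Of the 8 regulators tested, *PPARGC1B* and *ESRRA* fell (25%, beside 9.51% of all genes) and 0 rose. The list did not move in a single direction, as 5 of the 8 had a log2 fold change below 0 (median -0.14). The rest lay above 0 and did not pass. Their groups did not overlap, with siLTBP2 higher, as was so for 18.7% of all genes tested. *ESRRA* lost its call in 4 of the 6 fits that left out 1 library (adjusted p of 0.063 to 0.094, edgeR).

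Of the factors that transcribe the mitochondrial genome, the core members did not pass the test without the block. *POLRMT*, its RNA polymerase, had a log2 fold change of -0.07 (SE 0.10, 95% interval -0.29 to 0.15). *TFAM*, which packages the genome and starts transcription, was at 0.18 (95% interval -0.11 to 0.47), the initiation factor *TFB2M* at -0.23 (with the block, adjusted p = 0.043, edgeR) and the elongation factor *TEFM* at -0.04. Of the 11 genes of this list 1 rose (9.09%, near the 9.76% of all genes): *TFB1M*, which methylates the 12S rRNA, at 19.3, 20.8 and 21.3 CPM in siNT and 27.5, 26.5 and 28.6 CPM in siLTBP2 (0.43, SE 0.09, adjusted p = 0.0096).

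Among 21 genes of mitochondrial RNA processing and stability, 1 rose and 1 fell (9.52%, beside 19.3% of all genes called). *REXO2*, an exonuclease that degrades short RNAs, rose by 0.50 on the log2 scale (adjusted p = 0.0025), and *PDE12*, which removes poly(A) tails, fell by 0.33 (adjusted p = 0.033). *LRPPRC* and *SLIRP*, whose complex stabilises the mitochondrial mRNAs, had log2 fold changes of -0.07 and -0.24 and did not pass (adjusted p = 0.679 and 0.199, edgeR), *SLIRP* passing only with the block (adjusted p = 0.028). Of 11 genes of mitochondrial DNA replication and nucleotide supply, 1 rose (9.09%, near the 9.76% of all genes), the nuclease *MGME1* (0.45, adjusted p = 0.0094).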

How the data were processed

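Total RNA of 6 CCD18Co libraries (3 siNT, 3 siLTBP2) was made by the authors into stranded, rRNA-depleted libraries, and the paired reads were aligned to GRCh38. The submitters' processing notes name bcl2fastq, STAR 2.7.1a and HTSeq 0.11.2. The authors deposited 1 table of raw counts per gene, not normalised. For the strand and overlap settings of the counting, and for the Ensembl release, the value is not given in the sources used here. No column of per-sample values was left unused (0), and samples were grouped by the treatment and replicate labels.

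From these counts, genes were kept by filterByExpr and tested with TMM factors in edgeR 4.0.16 (R 4.3.3, glmQLFit and glmQLFTest, two-sided, Benjamini-Hochberg over all genes kept). "Rose", "fell" and "passed" mean an adjusted p below 0.05. Standard errors are the log2 fold change over the square root of the test statistic. CPM per kb divides by the length of the gene in GENCODE 44, whose 37 mitochondrial starts equal those of the table. Sequences come from chrM of GRCh38 (hg38) and nuclear copies from blastn 2.17.0. Steps were tested on simulated data. The members and gene lists were chosen with earlier results of these data known. Named genes were all mitochondrial rows, *LTBP2*, up to 5 higher and 5 lower called members of each list, 7 regulators of mitochondrial expression whatever their values, and up to 5 nuclear copies at 1 CPM or more. *ATP5MC2* was named outside this rule. The values of 1 gene that this rule names are not reported here.

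Alternatives were the likelihood ratio test, DESeq2 1.42.0, other scalings and filters, the library number as a block, and leaving out each library. Labels do not say what a number shares. Deviations from the group means at log2(CPM + 0.5) correlated at 0.44, 0.19 and 0.57 between same-numbered libraries. Between others they correlated at -0.50 to 0.07. With edgeR's prior count of 2 the 3 same-number values were 0.30, 0.083 and 0.43, so the pairing is borderline. The numbers were taken as pairs only where a block or a same-number comparison is named. The main fit and the permutation tests treated the libraries as unpaired. Libraries of one group differed by more than sampling noise (chi-square per degree of freedom of 27.8 to 55.2). The binomial intervals of shares and the floors cover counting error only, and the intervals of fold changes rest on the spread between libraries.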

Additional observations from a re-analysis of the deposited data

How the results depend on the processing

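No mitochondrial gene passed an adjusted p below 0.05 under the likelihood ratio test, DESeq2, the RLE, upper-quartile or total-count scalings, library sizes without chromosome MT, or a filter of 1 CPM in 3 libraries. With no low-count filter 2 of 27 passed (*MT-RNR2* 0.38, adjusted p = 0.0035, and *MT-RNR1* 0.32, adjusted p = 0.026), where 3872 of all 33596 genes tested did. With the replicate block 3 of 21 passed, where 36.2% of all genes tested did. Leaving out 1 library gave 0 to 2, the 2 being *MT-RNR1* (0.99, adjusted p = 0.039) and *MT-RNR2* (1.00, adjusted p = 0.042) without siNT 3. In that fit 2582 of all 17451 genes tested passed. The blocked count was 1 to 5 with one pair left out, and the 1 was *MT-TI* (-0.76, adjusted p = 0.0071) without the pair numbered 1. The nuclear lists had 28 called genes of 224 tested (9 higher, 19 lower), 12.5% beside 19.3% of all genes tested. With the block they had 71 (16 higher, 55 lower), where 36.2% of all genes tested were called. Without one library they had 17 to 26 (8 to 9 higher, 9 to 17 lower), 17 without siLTBP2 2 and 18 without siNT 3. *MT-ND2* turned to -0.0058 with the block, which otherwise changed a call of *MT-CYB*, *MT-RNR1*, *MT-RNR2*, *SLIRP* and *TFB2M* (-0.23, adjusted p = 0.043) alone among the named genes. *UQCRC2* missed the threshold with RLE factors (adjusted p = 0.053) and without any one library (0.055 to 0.19). Of the 28 called nuclear genes, 12 lost the call without some library, among them *MRPS30* in 5 of 6 fits, *HARS2* and *PDE12* in 4, and *MRPS17* and *MRPS18B* in 3.

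Leaving out 1 library at a time turned the sign of 17 genes that had not passed. The log2 fold change ranged from -0.22 to 0.10 for *MT-CO1*, -0.14 to 0.40 for *MT-CO2*, -0.035 to 0.30 for *MT-CO3*, -0.20 to 0.24 for *MT-ND1*, -0.28 to 0.23 for *MT-ND2*, -0.19 to 0.11 for *MT-ND3*, -0.37 to 0.20 for *MT-ND4*, -0.26 to 0.12 for *MT-ND4L*, -0.37 to 0.35 for *MT-ND5* and -0.28 to 0.19 for *MT-ND6*. It ranged from -0.22 to 0.33 for *MT-ATP6*, -0.18 to 0.42 for *MT-ATP8*, -0.0072 to 0.99 for *MT-RNR1*, -0.24 to 0.50 for *MT-TW*, -0.13 to 0.49 for *MT-TP*, -0.17 to 0.038 for *TEFM* and -0.15 to 0.011 for *LRPPRC*. The share of counts stayed between -0.22 and 0.20 (log2 ratio) and the ratio of *MT-ND6* to the other mRNAs between -0.26 and 0.09, -0.01 and -0.07 within pairs of the replicate block.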

Other observations

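The machinery that translates the mitochondrial mRNAs showed single genes moving in both directions. Of 76 tested proteins of the mitochondrial ribosome, 5 rose and 4 fell (11.8%, beside 19.3% of all genes tested). *MRPS27*, a protein of the small subunit, fell most, from 88.8, 86.4 and 89.0 CPM in siNT to 47.2, 54.9 and 45.4 CPM in siLTBP2 (log2 fold change -0.84, SE 0.09, adjusted p = 2.2e-04, edgeR). The other 3 that fell were *MRPS17* (-0.57), *MRPS21* (-0.42) and *MRPS30* (-0.31). Those that rose were *MRPL52* (0.58), *MRPL36* (0.56) and *MRPL17* (0.43) of the large subunit and *MRPS10* (0.46) and *MRPS18B* (0.32) of the small one. The median over the 76 was -0.03.

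Among the mitochondrial aminoacyl-tRNA synthetases, which load the tRNAs, *HARS2*, for histidine, fell from 28.7, 25.3 and 26.6 CPM in siNT to 21.7, 20.9 and 18.7 CPM in siLTBP2 (log2 fold change -0.39, SE 0.10, adjusted p = 0.021, edgeR). The tRNA that *HARS2* loads, *MT-TH*, had 0 counts in every library and could not be compared.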
